A study of Mus musculus with 24 samples.

Results

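The mitochondrial solute carriers of the Slc25 family were followed in quadriceps muscle of mice fed a high fat or a low fat diet. Members were all genes whose probe set the array's annotation assigns to 1 symbol made of Slc25a and a number, leaving out Slc25a1 and Slc25a20. The rule found 39 genes, with 1 probe set each, of 14754 genes on an array of 16361 probe sets. Another 2 probe sets were annotated to a carrier together with a further gene, and are not members.

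Slc25 carriers are small proteins of the inner mitochondrial membrane that exchange metabolites between the cytosol and the mitochondrial matrix. They let ADP and phosphate in and ATP out, run the malate-aspartate shuttle that brings reducing equivalents from glycolysis into the matrix, and pass amino acids, nucleotides, cofactors and iron. In muscle the ATP-producing fibres depend on the ADP/ATP and phosphate carriers, and slow fibres are richer in mitochondria than fast ones.

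All mice were male C57BL/6J (the sample labels write C56BL/6J) and carried no transgene named in the labels. After 2 weeks on a standard growth diet they entered a low fat run-in diet of 3 weeks at 9 weeks of age, and were then randomly assigned. The 4 groups were mice on high fat for 3 days, low fat for 3 days, high fat for 28 days and low fat for 28 days, with 6 mice in each. Both diets were based on palm oil, with fat giving 45% of the energy in the high fat (HF) diet and 10% in the low fat (LF) diet. The mice were 12 weeks old at day 3 and 16 weeks old at day 28, so time on the diet and age cannot be told apart. Each mouse gave 1 array of whole quadriceps RNA. For LF day 3 replicate 1 the described extraction does not name the removal of genomic DNA, and without that array the same numbers of carriers were called. The labels number the mice of the 2 diets in separate ranges, so any difference between those sets of animals cannot be told apart from diet.

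Levels are log2 of the deposited GCRMA intensity, and a change of 1 on this scale is a factor of 2. Array medians lay between 6.56 and 6.90 on the linear scale, and correlations between pairs of arrays ran from 0.978 to 0.995. Precision is limited by the number of arrays. All 8 fast fibre markers passed the filter, and their summed intensity was 92053 to 95304 in HF and 92432 to 96398 in LF at day 3, and 94157 to 98108 in HF and 90059 to 94488 in LF at day 28. The 3 liver markers were all dim. All 8 slow fibre markers were called higher on high fat at both days. At day 28, 5 of 5 tested adipocyte markers, both brown fat markers and 6 of 6 tested macrophage markers were called lower on high fat. At day 3, 3 of 5 tested adipocyte markers and 1 of 6 macrophage markers were called lower, and 4 of 5 tested endothelial and 5 of 6 fibroblast and tendon markers higher, with 0 and 2 higher at day 28.

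Testing was limited to genes with a log2 level above 4 on 6 or more of the 24 arrays, and 21 carriers of 39 met this. Of these, 17 exceeded 4 on every array. A carrier was called at a limma adjusted p under 0.05 (Benjamini-Hochberg over the 5793 genes tested). At day 3, limma called 3 carriers higher (Slc25a34, Slc25a30 and Slc25a11) and 1 lower (Slc25a44) on high fat, 4 of 21, against 14.9% of all genes tested (7.99% higher and 6.87% lower). At day 28 it called 3 higher (Slc25a34, Slc25a33 and Slc25a11) and 2 lower (Slc25a35 and Slc25a39), 5 of 21, against 12.5% of all genes tested (5.35% higher and 7.18% lower). Slc25a35 passed the filter only through LF mice, where it is high, so its place in that count follows in part from the filter. At an unadjusted p under 0.05 there were 7 carriers at each day. The share of all genes at that unadjusted level was not counted, so these 7 cannot be set against it. The median log2 change of the tested carriers was 0.0076 at day 3 and 0.080 at day 28, against -0.0051 and 0.0097 for all genes tested. Slc25a34 and Slc25a11 were called at both days, 7 carriers were called at 1 day or both, and 14 were called at neither. The matching shares of all genes tested were not counted, so these counts describe the carriers only.

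**Figure D1:**
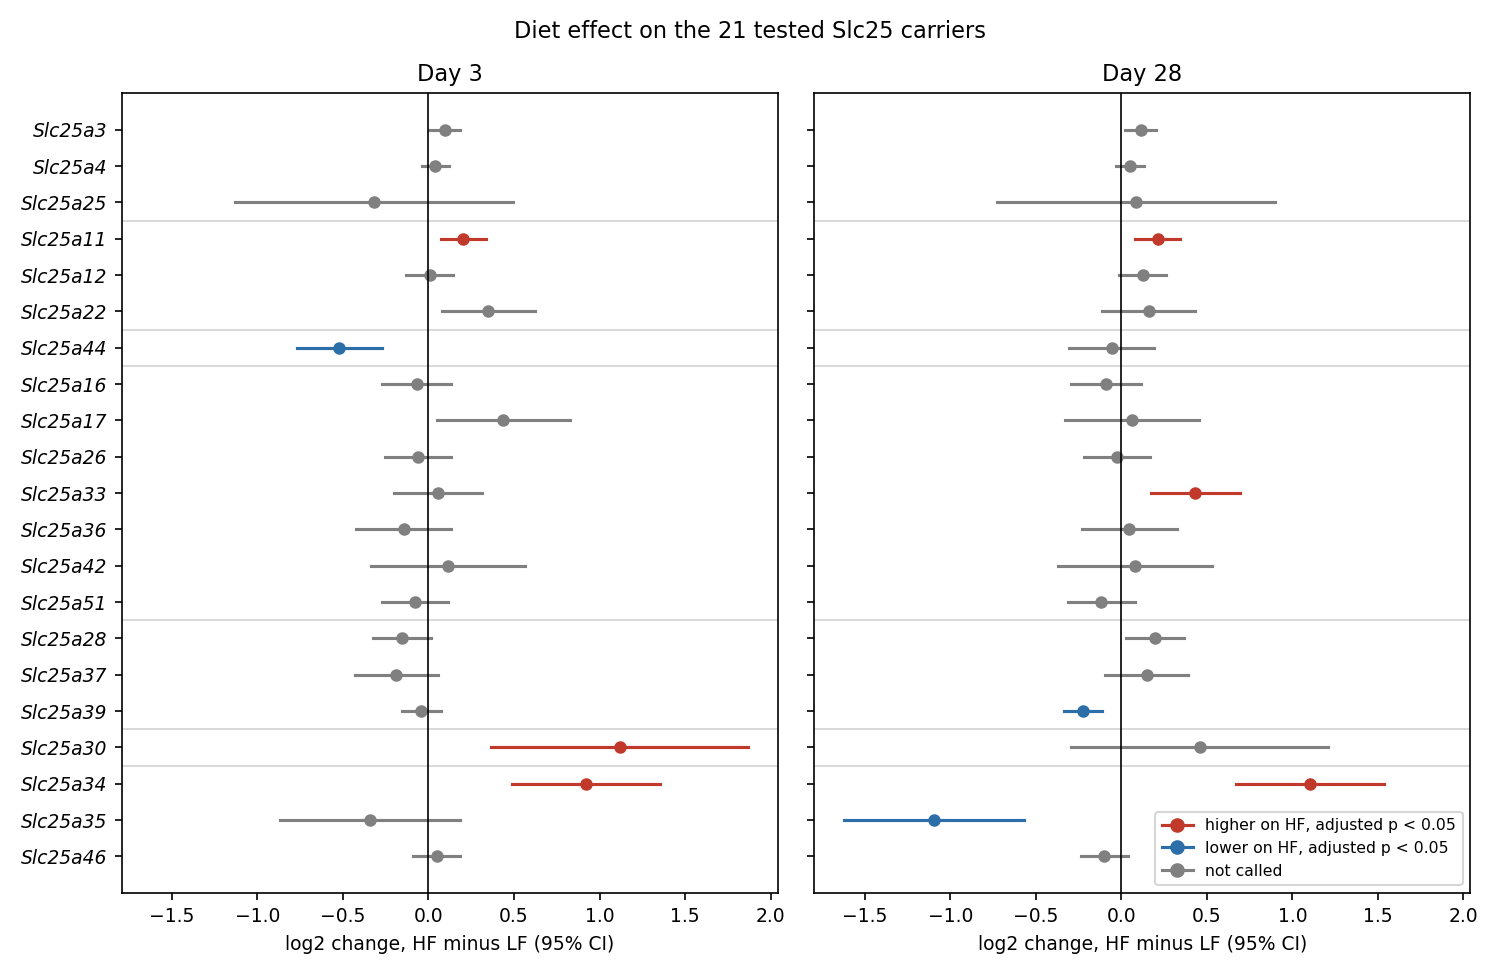
Log2 change, high fat minus low fat, of the 21 tested carriers at day 3 (left) and day 28 (right), with the 95% confidence interval of the limma fit (6 mice per group). Red marks carriers called higher, blue called lower and grey not called, and pale lines separate roles, from ADP/ATP and phosphate carriers at the top to carriers of unassigned substrate at the bottom. Slc25a34 and Slc25a11 lie to the right of 0 at both days, and the longest intervals belong to Slc25a25 and Slc25a30.

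Slc25a34 had the smallest adjusted p of the 21 tested carriers at both days. It is a carrier of no settled substrate, placed by sequence near carriers of dicarboxylic acids. The lowest, median and highest log2 levels at day 3 were 5.67, 6.03 and 6.17 in HF mice, and 4.23, 5.19 and 6.00 in LF mice. At day 28 they were 5.82, 6.02 and 6.30 in HF mice, and 4.74, 4.88 and 5.21 in LF mice. At day 28 every HF mouse lay above every LF mouse, while at day 3 one LF mouse, replicate 2 at 6.00, reached into the HF range. Groups without overlap were found for 2 of the 21 carriers and 8.04% of all genes tested at day 28, and for 0 carriers and 6.09% of genes at day 3.

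The log2 change of Slc25a34 was 0.92 ± 0.21 at day 3 (SE, limma adjusted p = 0.00472) and 1.10 ± 0.21 at day 28 (limma adjusted p = 0.00100). These are factors of 1.89 and 2.15. The level varied little in 3 of the 4 groups, with an SD of 0.18 in HF mice at both days and 0.17 in LF mice at day 28. In LF mice at day 3 the SD was 0.70. The day 3 call was kept without any 1 of the 12 arrays compared, at a highest adjusted p of 0.0129. In a limma fit without the day 28 arrays it was kept narrowly (adjusted p = 0.0487).

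Promoter windows were taken for the carriers called higher at both days, Slc25a34 and Slc25a11, and printed only where they lie outside the annotated gene. For Slc25a34 the stretch just before its start is shown from the RefSeq promoter window. It lies at chr4:141623892-141624084 of GRCm38.p6 on the minus strand, and capitals mark the matches to the motifs named below.
Slc25a34: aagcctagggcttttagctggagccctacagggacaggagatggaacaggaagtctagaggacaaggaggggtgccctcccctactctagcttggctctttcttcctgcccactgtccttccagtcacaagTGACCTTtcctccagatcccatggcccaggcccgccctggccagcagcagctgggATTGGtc

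A set of 5 motifs was searched on both strands of the first 250 bases of each RefSeq promoter window. Any carrier window on chromosome 18 was left out of the carrier counts, but not out of the counts over all windows. Of the 250 bases, 193 lie outside the annotated span of the gene for Slc25a34 and are printed above. For Slc25a11 it is 0, so its searched window lies inside the annotated span of the gene. The motif AAGGTCA, bound by nuclear receptors such as the estrogen-related receptors, was found once, at bases 132 to 138 of the printed stretch and on its opposite strand. It is held by 4.08% of all 32851 promoter windows, and by 1 of the 37 carrier windows searched, that of Slc25a34. Those 37 windows belong to 29 carrier genes. The CCAAT box (CCAAT) was found once, at bases 187 to 191, also on the opposite strand. It is held by 33.8% of all windows, and by 18 of the 37 carrier windows, which belong to 15 genes, Slc25a11 included. TCAAGGTCA, which contains AAGGTCA, the nuclear receptor direct repeat DR1 and the NRF1 motif were not found in the windows of Slc25a34 or Slc25a11. They are held by 0.387%, 0.0335% and 3.74% of all windows. A match describes letters only.

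The slow fibre markers moved in the same direction as Slc25a34. Their summed intensity was 3407 to 21243 in HF and 189 to 1785 in LF mice at day 3, and 4461 to 8191 in HF and 211 to 2087 in LF mice at day 28, with no overlap at either day. Of the 6 LF mice at day 3, replicates 6 and 3, at 5.46 and 5.45 for Slc25a34, had slow fibre sums of 1220 and 1785. Replicates 1, 4 and 5, at 4.94, 4.32 and 4.23, had sums of 445, 225 and 189. These 5 mice ran in nearly the same order by both measures, and replicate 2, highest for Slc25a34 at 6.00, had a sum of 285. In LF mice at day 28 the highest sum, 2087 in replicate 2, went with 4.83 for Slc25a34, and the lowest, 211 in replicate 1, with 5.21. The part of fibre type in the result was not tested. In a whole muscle, fewer cells of a type and less RNA per cell cannot be told apart.

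**Figure D2:**
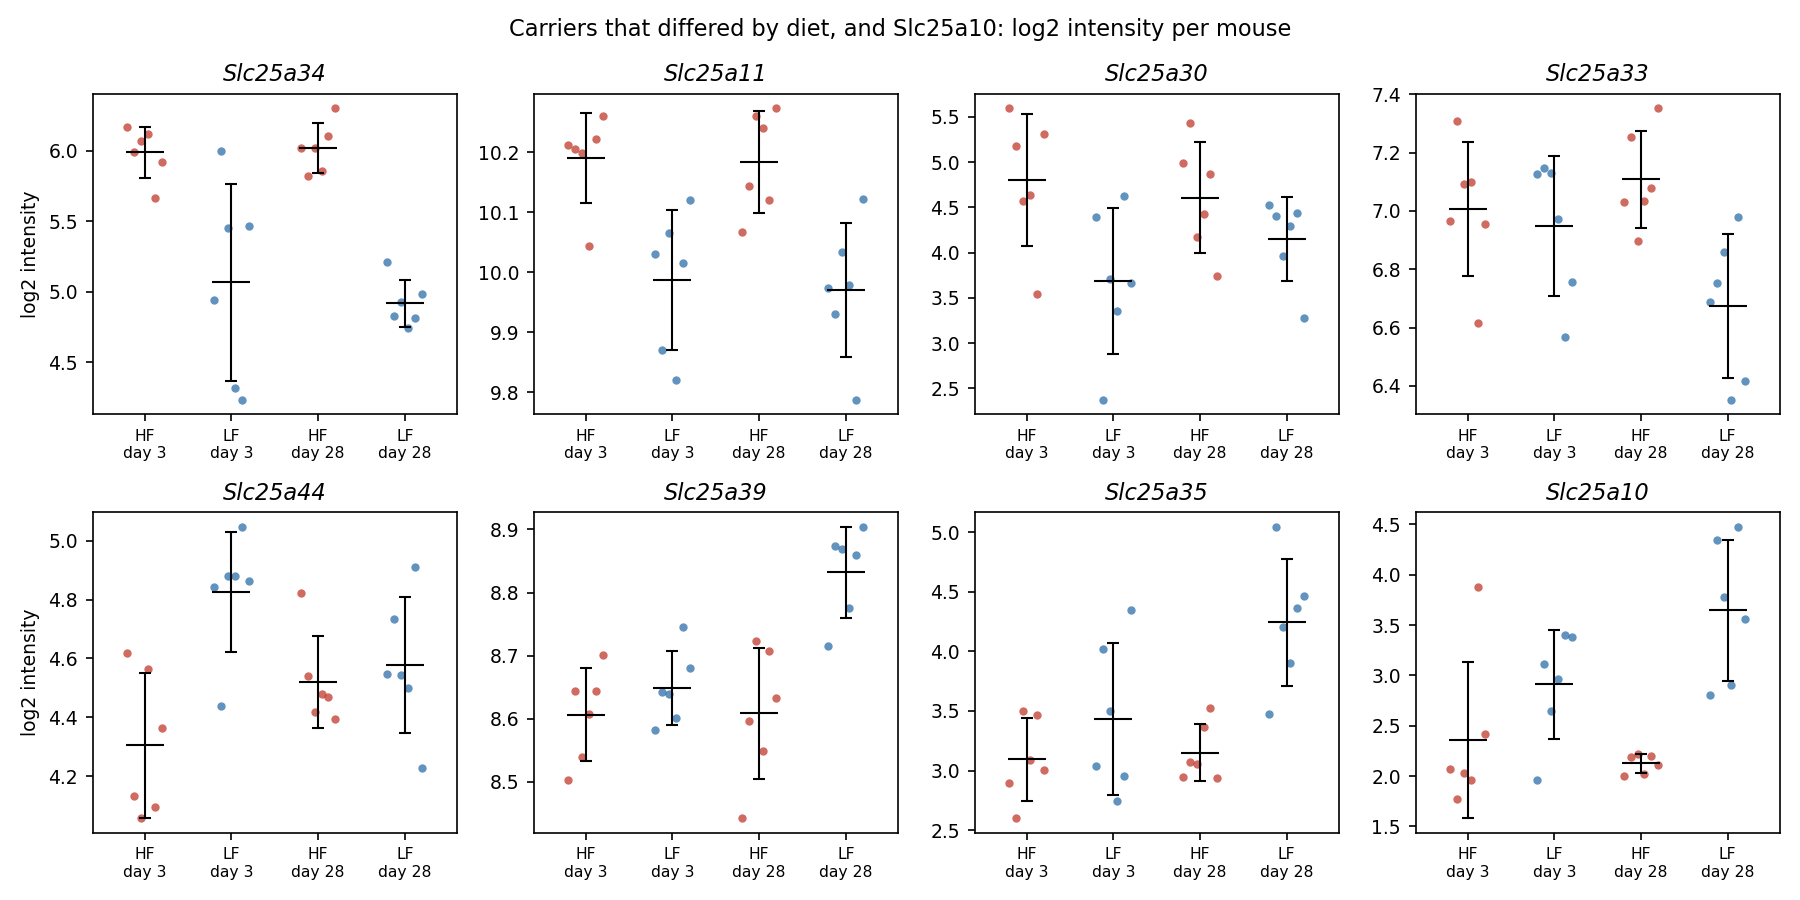
Log2 intensity in each of 24 mice for the 7 carriers called at 1 day or both and for Slc25a10, with HF mice in red and LF mice in blue. Each point is 1 mouse, and bars show the group mean ± SD (n = 6). For Slc25a34 the HF points gather near 6 at both days, and for Slc25a35 and Slc25a10 the LF day 28 group holds the highest points.

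Slc25a11, the carrier that exchanges 2-oxoglutarate for malate in the malate-aspartate shuttle, rose by a small and steady step. Its lowest, median and highest levels at day 3 were 10.04, 10.21 and 10.26 in HF, and 9.82, 10.02 and 10.12 in LF. At day 28 they were 10.07, 10.19 and 10.27 in HF, and 9.79, 9.98 and 10.12 in LF. Of 6 HF mice, 5 lay above every LF mouse at day 3 and 4 at day 28. The log2 change was 0.20 ± 0.06 at day 3 (SE, limma adjusted p = 0.0322) and 0.21 ± 0.06 at day 28 (limma adjusted p = 0.0264), or factors of 1.15 and 1.16.

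The call of Slc25a11 is close to the threshold. At day 3 it was lost in a fit without the day 28 arrays (adjusted p = 0.0827) and with dim genes kept in the test (0.0675). It was also lost at day 3 without HF replicate 1, 2, 5 or 6, or without LF replicate 2 or 4 (log2 changes of 0.17 to 0.20, adjusted p = 0.0521 to 0.0817). At day 28 it was lost with dim genes kept (0.0547) and without HF replicate 3, 4 or 6, or LF replicate 2 or 5 (log2 changes of 0.18 to 0.20, highest adjusted p = 0.0759).

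The other arm of that shuttle is the aspartate/glutamate exchange. Slc25a12, its muscle and brain form known as aralar, had lowest, median and highest levels of 11.01, 11.21 and 11.26 in HF and 11.00, 11.18 and 11.29 in LF at day 3. The values at day 28 were 11.15, 11.24 and 11.36 in HF, and 10.89, 11.16 and 11.24 in LF. The groups overlapped at both days. Its change was 0.0076 ± 0.066 at day 3 (limma adjusted p = 0.953, 95% interval -0.13 to 0.14) and 0.12 ± 0.07 at day 28 (limma adjusted p = 0.248, -0.01 to 0.26).

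Slc25a13, the liver form citrin, stayed dim, at 1.16 to 1.74 over all arrays. Slc25a22, a glutamate carrier, had a change of 0.35 ± 0.13 at day 3 and was not called (limma adjusted p = 0.0748). It was called with array weights, at a change of 0.45 and adjusted p = 0.0140. At day 28 its change was 0.16 (limma adjusted p = 0.491).

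None of the 3 tested carriers of ADP, ATP and phosphate was called at either day. Slc25a4, the ADP/ATP carrier of heart and muscle, had lowest, median and highest levels of 12.92, 12.94 and 12.96 in HF and 12.82, 12.91 and 12.99 in LF at day 3. At day 28 these were 12.90, 12.93 and 12.95 in HF, against 12.81, 12.88 and 12.92 in LF. Its log2 change was 0.04 ± 0.04 at day 3 and 0.05 ± 0.04 at day 28 (limma adjusted p = 0.519 and 0.453). The 95% intervals, -0.04 to 0.12 and -0.03 to 0.13, reach no further than 0.13 from 0. With quantile normalization the change was -0.02 at day 3 and -0.04 at day 28 (limma adjusted p = 0.715 and 0.548). The sign of so small a change thus depends on the normalization, which these intervals do not cover.

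Slc25a3, which carries phosphate for ATP synthesis, had 11.94, 11.99 and 12.02 (lowest, median and highest) in HF and 11.78, 11.89 and 11.98 in LF at day 3. At day 28 all HF mice, at 11.97 to 12.10, lay above all LF mice, at 11.88 to 11.94. It was the second carrier, besides Slc25a34, whose groups did not overlap at day 28. The step was small, with a change of 0.11 ± 0.04 at day 28 (limma adjusted p = 0.0938) and 0.10 ± 0.04 at day 3 (limma adjusted p = 0.147), and it was not called.

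Slc25a25 is an ATP-Mg/phosphate carrier whose activity calcium controls. Unlike Slc25a4 it spread widely among mice of every group. Its lowest, median and highest levels were 3.81, 4.84 and 6.25 in HF and 4.50, 4.92 and 6.33 in LF at day 3, and 3.997, 5.21 and 5.76 in HF and 4.20, 4.85 and 5.66 in LF at day 28. The change was -0.32 ± 0.39 at day 3 and 0.09 ± 0.39 at day 28 (limma adjusted p = 0.626 and 0.919). The 95% intervals were wide, -1.13 to 0.50 at day 3 and -0.73 to 0.90 at day 28. The other 4 members of this role (Slc25a23, Slc25a24, Slc25a31 and Slc25a41) were not tested, and none exceeded a level of 4 on any array.

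**Figure D3:**
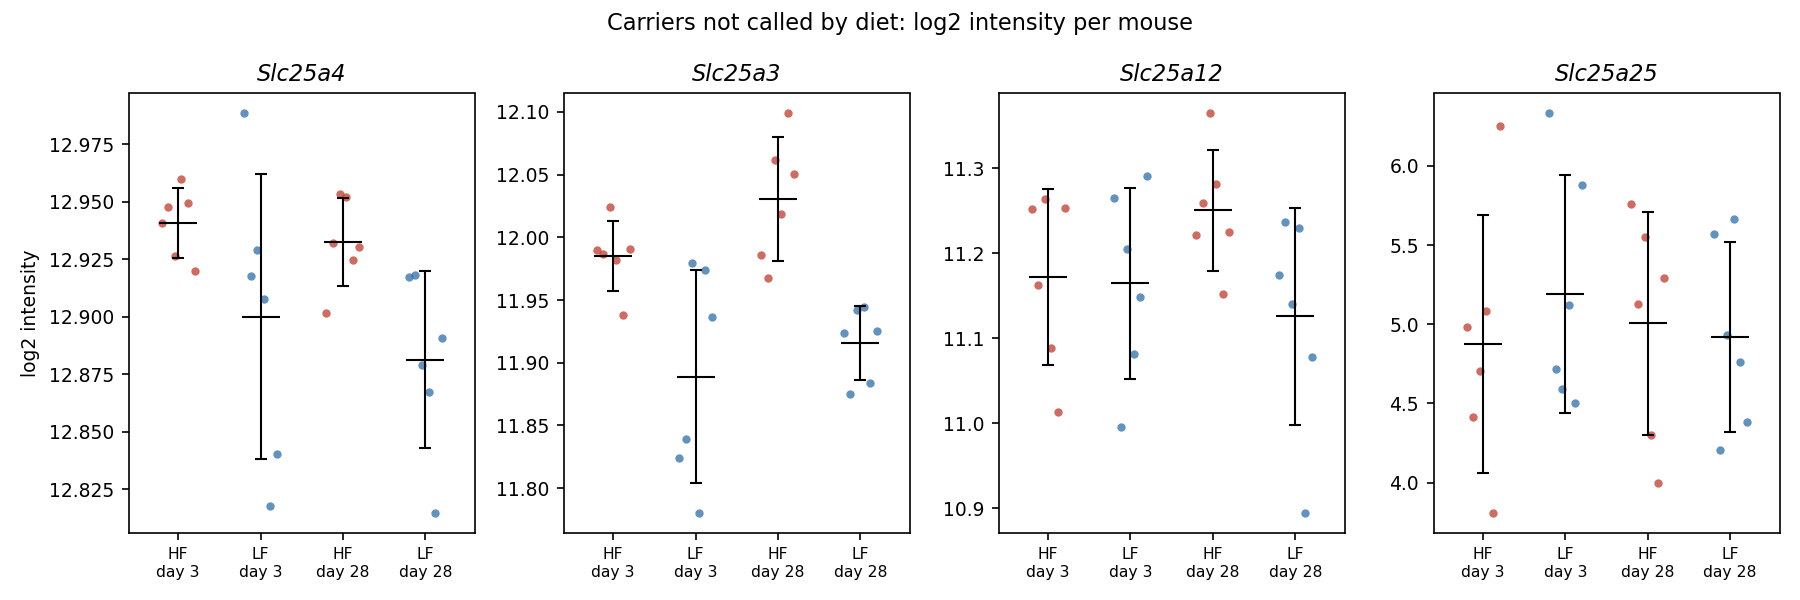
Log2 intensity in each of 24 mice for 4 carriers that were not called at either day, with HF mice in red and LF mice in blue. Each point is 1 mouse, and bars show the group mean ± SD (n = 6). Axis ranges differ, and Slc25a4 covers 12.81 to 12.99 while Slc25a25 covers 3.81 to 6.33.

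Among 7 tested carriers of cofactors, nucleotides and coenzyme A, none was called at day 3 and 1 at day 28. That 1 was Slc25a33, which carries pyrimidine nucleotides into mitochondria and is known from human cells to respond to insulin-like growth factor. At day 28 its lowest, median and highest levels were 6.90, 7.06 and 7.35 in HF, against 6.35, 6.72 and 6.98 in LF. Of the 6 HF mice, 5 lay above every LF mouse. At day 3 the groups overlapped almost fully, with 6.62, 7.03 and 7.31 in HF and 6.57, 7.05 and 7.15 in LF.

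The log2 change of Slc25a33 was 0.43 ± 0.13 at day 28 (SE, limma adjusted p = 0.0233) and 0.06 ± 0.13 at day 3 (limma adjusted p = 0.802). The difference between the days was 0.38 ± 0.18 and was not called (limma adjusted p = 0.252), so the diet effect is not shown to differ between days. The day 28 call was lost without HF replicate 2 or 6, or without LF replicate 4 or 6, with log2 changes of 0.37 to 0.40 and adjusted p = 0.0525 to 0.0648.

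The other 6 of this role were called at neither day. They are Slc25a16, Slc25a17, Slc25a26 (which carries S-adenosylmethionine), Slc25a36, Slc25a42 (coenzyme A) and Slc25a51 (NAD). Their log2 changes at day 28 ran from -0.12 to 0.08, with a lowest adjusted p of 0.479. At day 3 the change furthest from 0 was that of Slc25a17, a carrier of peroxisomes and not of mitochondria, at 0.44 ± 0.19 (limma adjusted p = 0.122). Slc25a32, which carries folate, was not tested.

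Slc25a44 was the only tested member of the role of basic and other amino acids, and is known in mouse brown fat for the uptake of branched-chain amino acids into mitochondria. It was called lower at day 3. Its lowest, median and highest levels were 4.06, 4.25 and 4.62 in HF, and 4.44, 4.87 and 5.05 in LF. Of the 6 HF mice, 4 lay below every LF mouse, and the lowest LF mouse, replicate 2 at 4.44, stood apart from its group. The change was -0.52 ± 0.12 (SE, limma adjusted p = 0.00502), a factor of 1.43 lower in HF, and was called without any 1 of the 12 arrays.

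At day 28 the Slc25a44 groups overlapped, at 4.39 to 4.82 in HF and 4.23 to 4.91 in LF, with a change of -0.06 ± 0.12 (limma adjusted p = 0.821). The difference between the day 28 and day 3 effects was 0.46 ± 0.17 and was not called (limma adjusted p = 0.148). Its level is low on this array, never over 5.05, so it lies near the range that the background correction sets. With 16 added to each intensity before the log, the day 3 change was -0.31, and the call was kept.

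The 3 tested carriers of iron and glutathione were not called at day 3. At day 28, Slc25a39, which imports glutathione into mitochondria, was lower on high fat. Its lowest, median and highest levels were 8.44, 8.61 and 8.72 in HF, against 8.71, 8.86 and 8.90 in LF. Of the 6 HF mice, 5 lay below every LF mouse. The change was -0.22 ± 0.05 (SE, limma adjusted p = 0.00707), a factor of 1.17 lower in HF, and was kept in all 8 alternatives it was tested in and without any 1 array. At day 3 the levels were 8.50 to 8.70 in HF and 8.58 to 8.75 in LF, with a change of -0.04 ± 0.05 (limma adjusted p = 0.646).

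The mitoferrins Slc25a28 and Slc25a37, which import iron, had negative changes at day 3 and positive ones at day 28. Slc25a28 had -0.15 ± 0.08 and 0.20 ± 0.08 (limma adjusted p = 0.213 and 0.128), and Slc25a37 had -0.19 ± 0.12 and 0.15 ± 0.12 (limma adjusted p = 0.293 and 0.472). For Slc25a28 the lowest, median and highest levels were 6.51, 6.76 and 7.05 in HF and 6.79, 6.95 and 7.02 in LF at day 3, and 6.89, 7.02 and 7.17 in HF and 6.64, 6.80 and 7.05 in LF at day 28. The groups overlapped at both days. With array weights Slc25a28 was called higher at day 28, at 0.20 and adjusted p = 0.0487.

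Slc25a30, a relative of the uncoupling proteins first described in kidney, was called higher at day 3. Its lowest, median and highest levels were 3.55, 4.90 and 5.60 in HF, and 2.37, 3.68 and 4.62 in LF. Of the 6 HF mice, 4 lay above every LF mouse, and HF replicates 3 and 5, at 4.56 and 3.55, lay among the LF mice. The change was 1.12 ± 0.36 (SE, limma adjusted p = 0.0399), a factor of 2.17, on a gene that exceeded 4 on 16 arrays of 24. At day 28 the levels were 3.74, 4.65 and 5.44 in HF and 3.28, 4.35 and 4.52 in LF, with a change of 0.46 ± 0.36 (limma adjusted p = 0.471).

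The Slc25a30 call at day 3 is the least secure of the family. It was lost with only the arrays compared (adjusted p = 0.0956) and with dim genes kept (0.0663). It was also lost without HF replicate 1, 2, 4 or 6, or without LF replicate 2, 3, 4 or 6, with log2 changes of 0.86 to 1.15 and adjusted p = 0.0509 to 0.103. With 16 added before the log, the change was 0.60, and the call was kept.

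Slc25a35, a close relative of Slc25a34 with no settled substrate, moved the other way. At day 28 its lowest, median and highest levels were 2.94, 3.06 and 3.53 in HF, against 3.48, 4.28 and 5.05 in LF. Of the 6 HF mice, 5 lay below every LF mouse. Its change was -1.09 ± 0.25 (SE, limma adjusted p = 0.00539), a factor of 2.13 lower in HF, and with 16 added before the log the change was -0.51 and still called. At day 3 the levels were 2.60, 3.05 and 3.50 in HF and 2.75, 3.27 and 4.35 in LF (change -0.34 ± 0.25, limma adjusted p = 0.392). Slc25a35 exceeded 4 on 6 arrays, 2 of LF day 3 and 4 of LF day 28, so it entered the test only through the groups where it is high.

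Slc25a10, the dicarboxylate carrier, known to be abundant in fat tissue, exceeded 4 on 2 arrays, both of LF day 28, and was not tested. Its lowest, median and highest levels were 1.78, 2.05 and 3.88 in HF and 1.96, 3.04 and 3.40 in LF at day 3, and 2.00, 2.15 and 2.22 in HF and 2.81, 3.67 and 4.48 in LF at day 28. At day 28 the groups did not overlap. With dim genes kept in the test, its change at day 28 was -1.52 ± 0.32 (SE, limma adjusted p = 0.00373 over 14754 genes).

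Markers of fat cells moved with these carriers. The summed intensity of the 6 adipocyte markers with a probe set was 3184 to 9538 in HF and 3754 to 10819 in LF at day 3, and 2747 to 4146 in HF and 7130 to 13417 in LF at day 28. Of these 6, Lep was dim. The 2 brown fat markers summed to 8.39 to 221 in HF and 8.01 to 354 in LF at day 3, and to 8.22 to 11.7 in HF and 93.2 to 612 in LF at day 28. The mouse of highest adipocyte sum in HF day 3, replicate 5 at 9538, also had the highest Slc25a10 level of its group, 3.88, while LF day 3 replicate 1, of lowest sum at 3754, had the lowest, 1.96.

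Slc25a35 followed that order less closely, with 3.47 in HF day 3 replicate 5 and 2.96 in LF day 3 replicate 5, where the adipocyte sum was 8723. The citrate carrier Slc25a1, no member here, stood at 7.10 in HF day 3 replicate 5 and at 3.20 to 3.78 in the other mice of that group. The 7 macrophage markers summed to 332 to 669 in HF and 660 to 1629 in LF at day 28. The part of fat cells and macrophages in the levels of Slc25a10 and Slc25a35 was not tested.

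**Figure D4:**
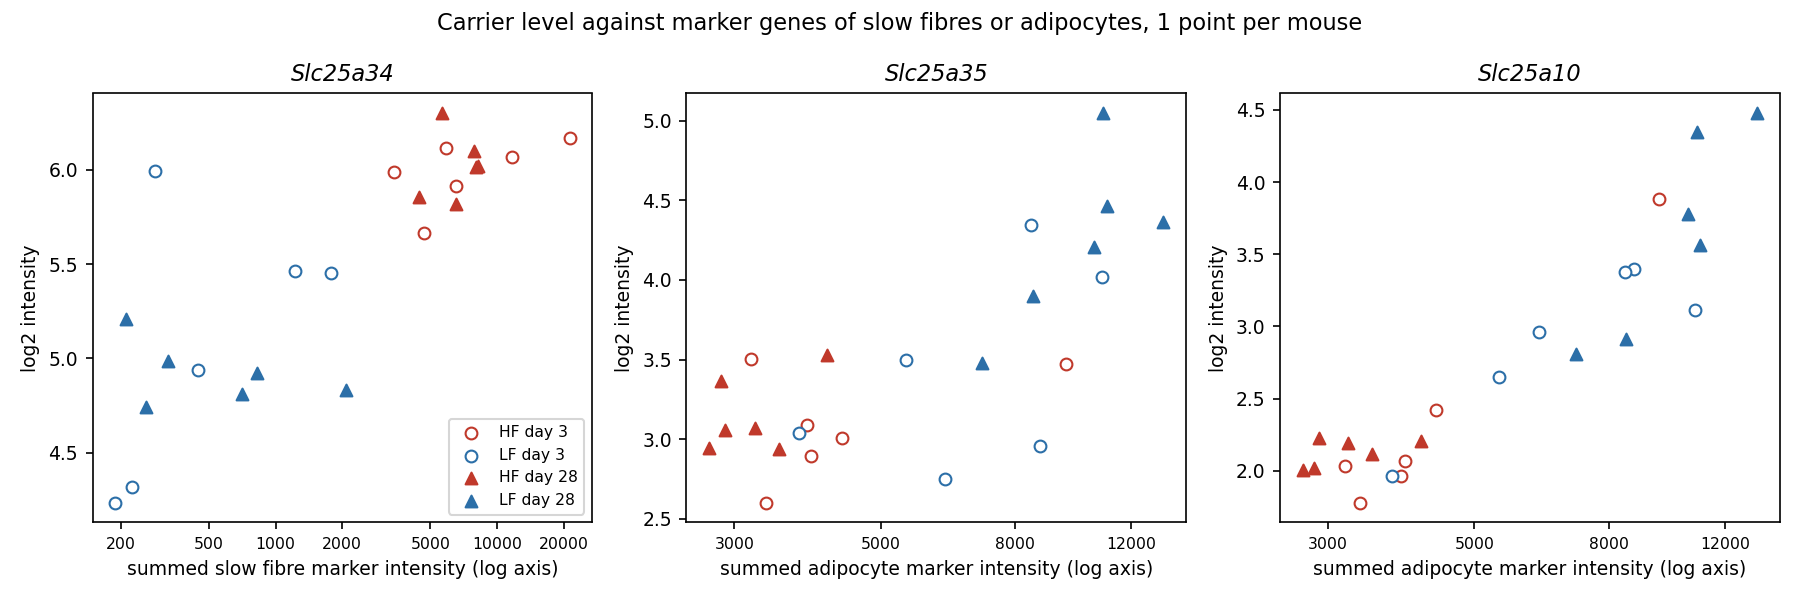
Log2 intensity of Slc25a34 against the summed intensity of 8 slow fibre markers, and of Slc25a35 and Slc25a10 against that of 6 adipocyte markers, both sums on log axes, 1 point per mouse. Red is HF and blue LF, with open circles for day 3 and filled triangles for day 28. HF and LF mice part on the slow fibre axis at both days, and in the Slc25a10 panel the HF day 3 mouse at a sum of 9538 lies among LF mice.

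The last tested carrier of unassigned substrate, Slc25a46, works at the outer mitochondrial membrane in fission and fusion. It had changes of 0.05 ± 0.07 at day 3 and -0.10 ± 0.07 at day 28 (limma adjusted p = 0.661 and 0.379).

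Whether the diet effect differed between 28 and 3 days was tested as the interaction. No carrier was called, against 1.38% of all genes tested. An unadjusted p under 0.05 was found for 5 of 21, and the share of all genes at that level was not counted. The smallest adjusted p was that of Slc25a28, with a difference of 0.35 ± 0.12 (limma adjusted p = 0.106, 95% interval 0.11 to 0.59). For Slc25a35 the difference was -0.75 ± 0.36 (limma adjusted p = 0.261), and for Slc25a39 it was -0.18 ± 0.08 (limma adjusted p = 0.204). For Slc25a34 it was 0.18 ± 0.30 (limma adjusted p = 0.790), with an interval of -0.43 to 0.79.

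Between the days within a diet no carrier was called either. On high fat, 0 of 21 were called by limma against 0.552% of all genes tested, with 3 at an unadjusted p under 0.05. On low fat, 0 of 21 were called against 0.345% of all genes, with 4 at an unadjusted p under 0.05. For both diets the share of all genes at that unadjusted level was not counted. Slc25a39 had the smallest adjusted p on low fat, with a change of 0.18 ± 0.05, day 28 minus day 3 (limma adjusted p = 0.118), and Slc25a28 on high fat, with 0.27 ± 0.08 (limma adjusted p = 0.130). These comparisons share their groups with the diet comparisons. The shares of all genes called moved when 1 array was left out, between 0.328% and 1.99% for the interaction, 0.0518% and 0.880% for the days on high fat, and 0% and 0.811% for the days on low fat. The lowest came without HF day 28 replicate 2 or LF day 28 replicate 5 for the interaction, without HF day 28 replicate 1 on high fat, and without LF day 28 replicate 2 or 5 or LF day 3 replicate 6 on low fat. The highest came without LF day 28 replicate 1 for the interaction and on low fat, and without HF day 3 replicate 2 on high fat.

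The carriers differed in the SD of log2 level among mice of 1 group. The SD within groups, pooled over the 4 groups, was 0.04 for Slc25a4 and 0.05 for Slc25a3, with 0.069% and 0.311% of the genes tested below them. It was 0.72 for Slc25a25 and 0.67 for Slc25a30, at percentiles 97.8 and 97.5 of those genes. The first 2 are bright, at 12.81 to 12.99 for Slc25a4 and 11.78 to 12.10 for Slc25a3. The last 2 are dim, at 3.81 to 6.33 for Slc25a25 and 2.37 to 5.60 for Slc25a30. The percentiles take no account of level, so differences between mice and the effect of signal level cannot be told apart here. The median was 0.21 over the 21 carriers and 0.19 over all genes tested.

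Carriers reach the inner membrane through the Tom and Tim import machinery. Of the list of import factors, outer membrane channels and related inner membrane proteins, 15 genes had a probe set and 13 were tested. None was called by limma in any of the 5 comparisons, in which 14.9% (diet at day 3), 12.5% (diet at day 28), 1.38% (interaction), 0.552% (days on high fat) and 0.345% (days on low fat) of all genes tested were called. The median log2 change was 0.06 at day 3 and 0.03 at day 28. Timm22 and Mcu did not pass the filter.

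For scale, Slc25a20, the carnitine carrier left out by the rule, stood at 8.97 to 9.30 in HF and 8.40 to 8.61 in LF at day 3. Its groups did not overlap at either day, and its adjusted p was smaller than that of Slc25a34 at both (limma adjusted p = 5.88e-07 at day 3 and 3.05e-06 at day 28). Slc25a1, also left out by the rule, was lower on high fat. Its log2 change was -1.89 at day 3 and -4.62 at day 28 (limma adjusted p = 0.0400 and 3.49e-05), and its groups overlapped at day 3 but not at day 28.

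The remaining untested carriers gave dim signals in every group. Besides Slc25a10, Slc25a15, the ornithine carrier of the urea cycle, came closest to the filter, with 3 arrays above 4 and levels of 3.43 to 4.20. The other 16 never exceeded 3.61. Among them are Slc25a31, the ADP/ATP carrier of testis, Slc25a47 of liver, Slc25a27 and Slc25a14, relatives of the uncoupling proteins known from brain, and Slc25a38, which imports glycine for haem synthesis. With dim genes kept in the test, none of these 17 was called at either day (log2 changes of -0.41 to 0.27, lowest adjusted p = 0.172). A dim signal here says that the probe set is near background, not that the gene is silent.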

How the data were processed

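RNA of 24 quadriceps samples, 1 mouse and 1 Affymetrix mouse array each, was measured. The deposited values are intensity on a linear scale that the authors computed with GCRMA, per the submitters' processing notes. The GCRMA version, the probe definition and the genome build are not given in the sources used here. GCRMA corrects background from probe sequence, so changes of dim probe sets depend on that correction. Of 16361 probe sets, 14771 had 1 gene symbol, 589 several, and 937 were not listed. The probe set of highest mean log2 was kept per gene (14754 genes), with log2 taken without offset. Under R 4.3.3, limma 3.58.1 estimated the 4 group means from all 24 arrays (20 residual degrees of freedom), two-sided, with Benjamini-Hochberg adjustment over the 5793 genes above log2 4 on at least 6 arrays. The fit was tested on simulated data.

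Every carrier could be named, with full statistics for those called and, whatever their result, for Slc25a3, Slc25a4, Slc25a11 and Slc25a12. Slc25a13 was on that list but did not pass the filter, so only its range is given. Slc25a5, also on that list, shares its probe set with another gene and is not analysed here. Statistics of other uncalled carriers and of Slc25a10 were added after their values were seen. Members, role lists and marker lists were chosen with earlier results of these data known. The labels do not say that equal replicate numbers share a litter or day. Of 36 pairs of equal number, 15 had deviations from their group means that correlated over 0.1. All pairs of replicate 1 did so, and no pair of replicate 4. Pairs of unequal number were not computed, so these correlations cannot decide whether mice were paired. Alternatives covered normalization, offset, filter, arrays in the fit, weights, replicate block and single probe sets. Leaving out 1 array at a time was added after seeing the data. Promoter sequence is RefSeq's (GRCm38.p6), and motifs were chosen after the carriers' values were seen.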

Additional observations from a re-analysis of the deposited data

Results flagged for a closer look

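Of 84 sets of 6 mice (21 carriers in 4 groups), 7 had 1 mouse far from the others by Dixon's test, where chance alone flags about 1 in 20. Slc25a11 stood at 10.04 in HF day 3 replicate 4, below 10.20 in the nearest mouse. Slc25a17 stood at 4.11 in the same mouse, against 4.83 in the nearest, and at 3.70 in LF day 28 replicate 1, against 4.33. For Slc25a26 it was HF day 3 replicate 6 at 5.07, with the nearest mouse at 5.46. Slc25a37 was high in LF day 28 replicate 6, at 6.83 with the next mouse at 6.53. Slc25a44 was low in LF day 3 replicate 2, at 4.44 with the next at 4.84, and high in HF day 28 replicate 1, at 4.82 with the next at 4.54. The day 3 fall of Slc25a44 was larger without that LF mouse, with a log2 change of -0.60, and Slc25a17 was called higher at day 3 without HF replicate 4.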

How the results depend on the processing

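At day 3 the count of 4 called carriers fell to 2 with dim genes kept in the test, to 2 with a filter of log2 above 6, which left 12 carriers, and to 2 in a fit of the arrays compared alone. It was 4 or 5 under the other alternatives. Leaving out 1 array, a check chosen after seeing the data, gave 2 to 5 called carriers at day 3 and 3 to 5 at day 28. Over all genes, the interaction count of 80 was 6 with dim genes kept, 278 with array weights and 176 with the replicate block, the high fat day count of 32 was 9 and 106 under the first 2 of these, and the low fat day count of 20 was 3 and 132, 40 with quantile normalization, 32 with the replicate block and 0 with the arrays compared alone. The cause was not tested. The counts of 2 carriers at day 3 came without HF replicate 1, 2 or 6, or without LF replicate 2 or 4, and the count of 3 at day 28 without HF replicate 6. Under the other settings the day 28 count was 4 to 6. For the interaction and the 2 comparisons of days the count was 0 under each alternative and without any 1 array. With the replicate block, 4 carriers were called at day 3 and 5 at day 28, the same genes as without it, and the correlations of equally numbered mice ran from -0.38 to 0.54. Of 460 recomputed changes of 12 named carriers, 453 kept their side of the threshold, but these include comparisons in which no carrier was called. None of the called changes reversed sign, though the filter settings, the arrays compared alone and the replicate block leave the log2 change as it is. Some uncalled diet changes near 0 did change sign with quantile normalization. These were Slc25a4 at both days, Slc25a12 at day 3 (-0.05) and Slc25a44 at day 28 (0.0025). Among the calls, Slc25a11 was kept in 6 of 8 alternatives at day 3 and 7 of 8 at day 28. Slc25a30 was kept in 5 of 7 at day 3, and the other calls in all. Under the filter of log2 above 6, Slc25a34 entered the test only through HF mice, where it is high. No LF mouse exceeded 6 for it (highest 5.996), so its calls under that filter follow in part from the filter. Carriers near background have changes that an offset shrinks.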
